A study of Mus musculus with 12 samples.

Results

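The 38 Hox genes described here are protein-coding genes of the Hoxa, Hoxb, Hoxc and Hoxd clusters, followed across 12 samples of mouse central nervous system. A gene was measured where a probe set, a group of short probes for a transcript, carried that gene symbol alone in the platform's annotation, and where several did, the probe set with the highest mean signal over the 12 samples was taken. This gave 33 of the 38 genes, out of 18193 genes measured in the series. Of the 33 genes, 24 passed the filter on dim genes (a mean log2 level of at least 8.72) and were tested, among 12600 genes tested in all. These were 8 genes of Hoxa, 6 of Hoxb, 6 of Hoxc and 4 of Hoxd. The 9 genes below the filter were Hoxa13, Hoxb1, Hoxb7, Hoxb13, Hoxc13, Hoxd1, Hoxd11, Hoxd12 and Hoxd13. Hoxa6, Hoxb8, Hoxc11, Hoxc12 and Hoxd4 had no probe set of that single symbol and are not analysed here.

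The samples formed 4 groups of 3, namely NR3B knockout mice at postnatal day 5 (P5), wild-type mice at P5, NR3B knockout mice at birth (P0) and wild-type mice at P0. NR3B is a subunit of NMDA-type glutamate receptors, and Grin3b is its gene. The labels give neither the allele, nor the deleted part, nor the strain. Titles name brain, hindbrain and spinal cord as the tissue while descriptions name brain alone, so how much of each a sample holds is unknown. Nothing says that the samples of a group came from separate animals. The p-values then measure only how these samples vary, which may be technical.

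Hox genes encode homeodomain transcription factors that give cells along the head-to-tail axis of the embryo their positional identity. A gene's number is its paralog group, and within a cluster the order of the numbers follows the order of expression along the body, low numbers in the hindbrain and high numbers in the lumbar and sacral cord. Many Hox genes stay active in hindbrain and spinal neurons after these cells are born, where they govern the identity and connections of motor neuron pools, and the forebrain is largely free of them. Hox proteins bind DNA together with cofactors of the Pbx, Meis and Pknox families.

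Median signals of the 12 arrays lay between 605 and 734. Samples of a group differed more at P0 than at P5, and the weights that limma gives to arrays, lower for an array that departs from its group, were 0.189 for P0 wild-type sample 2, 0.36 for P0 wild-type sample 1 and 0.375 for P0 knockout sample 1. Grin3b, the targeted gene, had signals of 48.5, 39.7 and 45.4 in P5 knockout samples, against 273, 168 and 155 in P5 wild-type samples. At P0 it had 31.4, 38.8 and 96.9 in knockout samples, against 353, 198 and 304 in wild-type samples. Knockout samples lay below wild-type samples at both ages, with a two-sided exact permutation p of 0.1 each, the smallest that 3 against 3 allow. In a limma fit without the filter, the log2 difference of Grin3b was -1.75 at P5 and -2.11 at P0 (SE 0.49). It did not pass at either age (limma adjusted p = 0.343 at P0). Whether its probe set lies in the deleted part is unknown. Of 13 measured forebrain markers, 8 lay below the filter, among them Emx1, Tbr1, Fezf2, Dlx1 and Dlx2, and 5 were tested (Emx2, Neurod6, Six3, Lhx2 and Eomes).

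**Figure D1:**
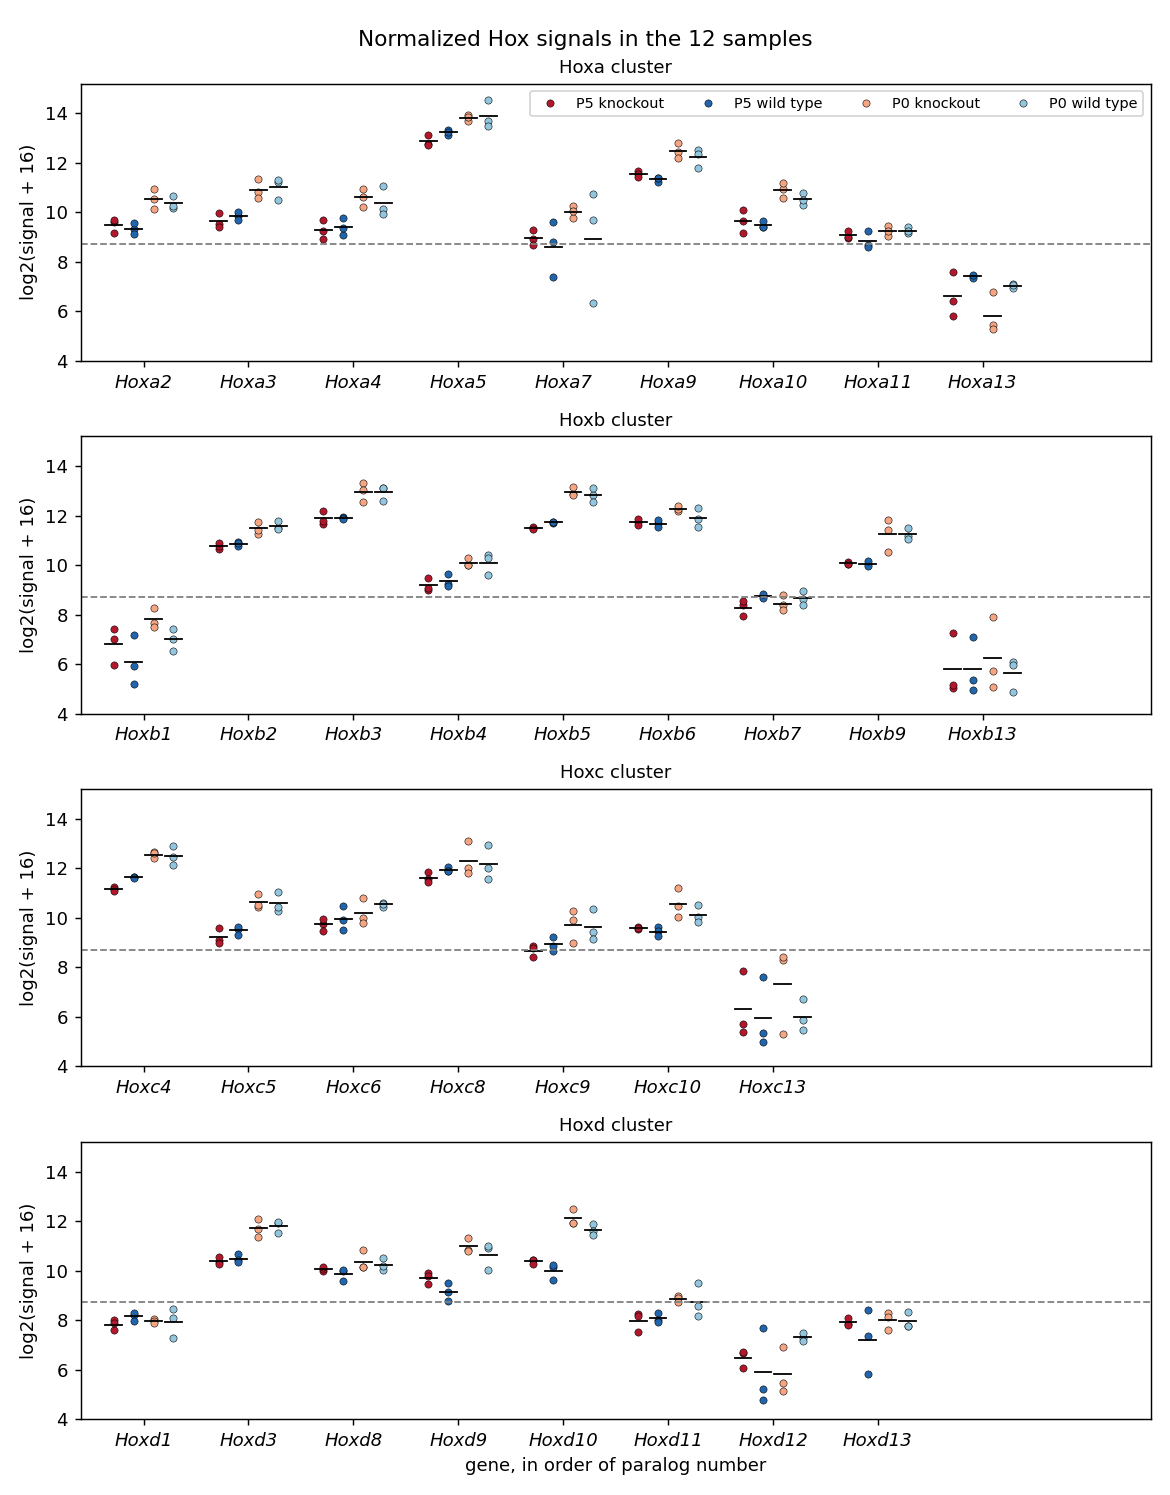
Normalized log2(signal + 16) of the 33 measured Hox genes in each sample, in 1 panel per cluster, with genes in order of paralog number, points for the 3 samples of a group and a bar for their mean. The dashed line marks the filter at 8.72, and for most genes above it the P5 points of both genotypes lie under the P0 points. Levels of different genes cannot be set against each other, because their probes differ.

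Most tested Hox genes were lower at P5 than at P0 in both genotypes. In knockout, 17 of the 24 fell and 0 rose, where 4.95% of all tested genes fell and 5.5% rose (limma, with Benjamini-Hochberg adjustment over the 12600 genes and a threshold of 0.05). In wild type, 16 fell and 0 rose, where 8.52% of all tested genes fell and 10.8% rose. The same 16 genes fell in both genotypes, and the additional gene in knockout was Hoxc10. The median log2 difference, P5 minus P0, over the tested Hox genes was -1.06 in knockout and -0.87 in wild type, against -0.03 and 0.03 over all tested genes. All 24 tested Hox genes had a value below 0 in both genotypes, as did 53.4% of all tested genes in knockout and 47.2% in wild type. With array weights, 21 of the 24 were below 0 in wild type and 24 in knockout. In bulk tissue, fewer cells of a type and less RNA per cell cannot be told apart. The wild-type count rests in part on P0 wild-type samples 1 and 2. Without both, fewer Hox genes passed, 21 of the 24 were below 0 and Hoxa7 was at 2.26. The Hox median was then -0.56, against 0.02 over all tested genes, with a single P0 wild-type sample assumed to vary like the others.

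**Figure D2:**
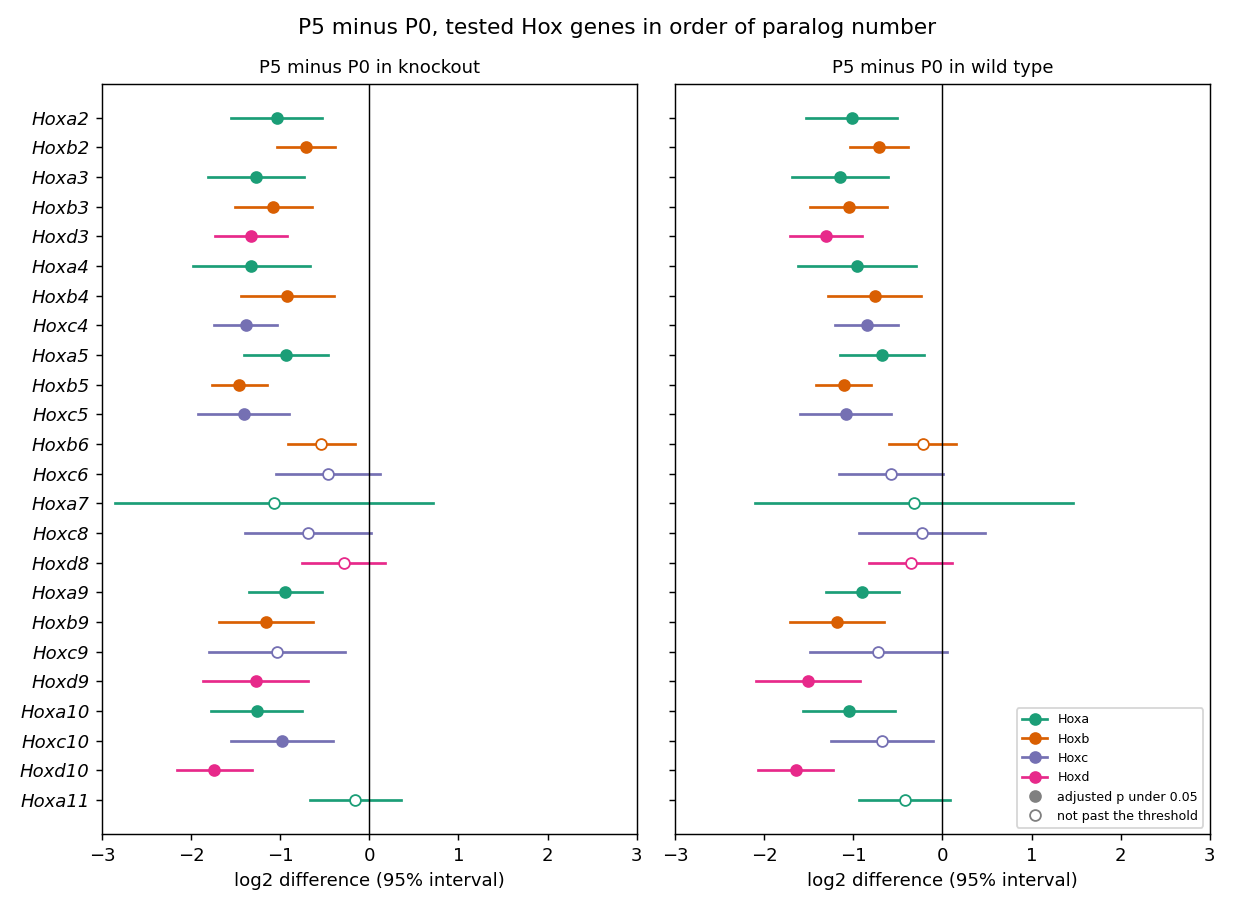
Log2 differences P5 minus P0 with 95% intervals for the 24 tested Hox genes, knockout on the left and wild type on the right, in order of paralog number from top to bottom. Filled points passed the threshold (17 in knockout, 16 in wild type), and all points lie left of 0, with open points for all 5 genes of paralog groups 6 to 8.

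Paralog groups 2 and 3 act in the hindbrain, where Hoxa2 and Hoxb2 pattern individual rhombomeres, the segments of the embryonic hindbrain, and group 3 genes pattern its caudal part. All 5 tested members fell in both genotypes. The signal of Hoxd3 was 1322, 1183 and 1463 in P5 knockout samples, against 4358, 2572 and 3131 in P0 knockout samples. It was 1628, 1410.2 and 1321 in P5 wild-type samples, against 4013, 3828 and 3019.8 in P0 wild-type samples. Every P5 sample lay below every P0 sample, a 2.51-fold fall in knockout (log2 difference -1.33, SE 0.19, limma adjusted p = 0.000557) and a 2.48-fold fall in wild type (-1.31, SE 0.19, adjusted p = 0.000554).

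Hoxa3 had signals of 731, 651 and 979 in P5 knockout samples, against 1836, 1505 and 2418 in P0 knockout samples. In wild type it had 940.3, 827 and 1039 at P5, against 2447, 2441 and 1466 at P0. Its groups did not overlap, and its log2 difference was -1.28 in knockout (SE 0.25, adjusted p = 0.00564) and -1.15 in wild type (SE 0.25, adjusted p = 0.0071). For Hoxb3 the signals were 4711, 3271 and 3443 in P5 knockout samples, against 10016, 5833 and 8586 in P0 knockout samples. The 3 P5 wild-type samples read 3905, 3828 and 3795 for Hoxb3, against 9071, 8817 and 6374 at P0. The P5 wild-type values were nearly alike, the P0 values of both genotypes were spread more widely, and the log2 difference was -1.08 in knockout and -1.05 in wild type (SE 0.20 for both, adjusted p = 0.00419 and 0.00369).

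Hoxa2 read 778, 539.5 and 801 in P5 knockout samples, against 1526, 1089.8 and 1762 in P0 knockout samples. In wild-type samples Hoxa2 read 653, 774 and 534 at P5, against 1209.6, 1535 and 1236 at P0. The groups were apart in both genotypes, at a log2 difference of -1.04 in knockout and -1.02 in wild type (SE 0.24, adjusted p = 0.0126 and 0.01). Hoxb2 read 1633, 1715 and 1834 in P5 knockout samples, against 2501, 2677 and 3262 in P0 knockout samples. In wild-type samples Hoxb2 read 1991, 1768 and 1909 at P5, against 3052, 3355 and 2866 at P0. Hoxb2 had the smallest fall of the 5, with a log2 difference of -0.71 in knockout and -0.71 in wild type (SE 0.15, adjusted p = 0.00847 and 0.00608), yet its groups did not overlap. The dim Hoxb1, a gene of the fourth rhombomere in the embryo, and Hoxd1 lay below the filter.

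Paralog groups 4 and 5 mark the caudal hindbrain and the cervical cord, and in the mouse Hoxa5 and Hoxc5 are needed by the phrenic motor neurons that drive the diaphragm. All 6 tested members fell in both genotypes. Hoxb5 read 2924, 2936 and 2772 in P5 knockout samples, against 7405, 7159 and 9476 in P0 knockout samples. It read 3369.7, 3432 and 3412 in P5 wild-type samples, against 7463, 8753 and 6191 in P0 wild-type samples. The P5 samples of each genotype lay within a narrow range and well below the P0 samples. The fall was 2.75-fold in knockout (log2 -1.46, SE 0.14, adjusted p = 4.26e-05) and 2.16-fold in wild type (log2 -1.11, SE 0.14, adjusted p = 0.000265).

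Hoxc4 read 2435, 2281 and 2148 in P5 knockout samples, against 6430.5, 5308 and 6169.8 in P0 knockout samples. In wild type Hoxc4 read 3270.1, 3239 and 3132 at P5, against 5725, 7518 and 4595 at P0. The ages were apart in both genotypes, with a log2 difference of -1.39 in knockout and -0.85 in wild type (SE 0.16, adjusted p = 0.000144 and 0.00385). Hoxc5 read 552, 733 and 486 in P5 knockout samples, against 2039, 1330.5 and 1315 in P0 knockout samples. In wild type Hoxc5 read 756, 632 and 792 at P5, against 1295, 1999.6 and 1403 at P0. No P5 sample reached a P0 sample of its genotype, and the difference was -1.41 in knockout and -1.09 in wild type (SE 0.24, adjusted p = 0.00209 and 0.00736).

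Hoxa5 read 8972, 6845 and 6664 in P5 knockout samples, against 15141, 13100.2 and 15342 in P0 knockout samples. In wild type Hoxa5 read 8871, 10073 and 9766 at P5, against 12962, 25566 and 11424 at P0. P0 wild-type sample 2 was far above the other P0 wild-type samples, and the log2 difference was -0.94 in knockout and -0.67 in wild type (SE 0.22, adjusted p = 0.0148 and 0.0465). Without that sample the wild-type value was -0.35 and did not pass, nor did it in most other fits that left out 1 sample. Hoxa4 read 598, 782 and 462 in P5 knockout samples, against 1243, 1542 and 1770.1 in P0 knockout samples. In wild type Hoxa4 read 549.9, 657 and 864 at P5, against 1149, 2029.98 and 996 at P0. The wild-type ages lay close together at their edges, and the log2 difference was -1.33 in knockout and -0.96 in wild type (SE 0.31, adjusted p = 0.014 and 0.0427).

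Hoxb4 read 723, 476 and 513 in P5 knockout samples, against 1063, 1009 and 1095 in P0 knockout samples. In wild type Hoxb4 read 611, 803 and 543 at P5, against 1397, 1215 and 789 at P0. The wild-type ages overlapped, since P5 sample 2 lay above P0 sample 3, and the log2 difference was -0.92 in knockout and -0.76 in wild type (SE 0.24, adjusted p = 0.0271 and 0.0415). Of the 12 fits that left out 1 sample, Hoxa4, Hoxa5 and Hoxb4 kept their wild-type call in only 5, 2 and 4. They kept their knockout call in 10, 10 and 8. Hoxa2 and Hoxc10 also lost their knockout call in some of these fits, and the other 12 knockout and 13 wild-type calls held in all of them.

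Paralog groups 6 to 8 include Hoxc6, which acts in limb-innervating motor neurons of the brachial cord, and Hoxc8, which acts in brachial motor pools. None of the 5 tested members, Hoxb6, Hoxc6, Hoxa7, Hoxc8 and Hoxd8, passed the threshold in either genotype. In limma, 1 of them in knockout (Hoxb6) and 0 in wild type had an unadjusted p under 0.05, where 25.1% and 36.1% of all tested genes did. Their median log2 difference was -0.54 in knockout and -0.32 in wild type, against -1.16 and -1.02 over the 19 tested genes of the other paralog groups. This grouping was noticed after the values were seen, and its difference from the other groups was not tested.

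Hoxb6 read 3412, 3176 and 3682 in P5 knockout samples, against 4605, 4831 and 5344 in P0 knockout samples. In wild type Hoxb6 read 3306, 3616 and 2991 at P5, against 3824, 4989 and 3009.7 at P0. The ages were apart in knockout and overlapped in wild type, with a log2 difference of -0.54 (95% interval -0.91 to -0.16, adjusted p = 0.0663) and -0.22 (-0.60 to 0.15, adjusted p = 0.38). Hoxc8 read 3708, 3051 and 2755 in P5 knockout samples, against 4168, 3510.1 and 9029.99 in P0 knockout samples. In wild type Hoxc8 read 4239, 3808 and 3848 at P5, against 4278, 7719 and 3124 at P0. P0 knockout sample 3 and P0 wild-type sample 2 stood high and the rest of the P0 samples lay near the P5 level, with a log2 difference of -0.69 in knockout and -0.23 in wild type (SE 0.33, adjusted p = 0.213 and 0.646).

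Hoxa7 had the widest interval of the tested members. Its signal was 617, 458 and 385 in P5 knockout samples, against 907, 1175 and 922 in P0 knockout samples. In wild type it was 438, 795 and 152 at P5, against 837, 1634 and 66.2 at P0. P0 wild-type sample 3 was by far the lowest and P5 wild-type sample 3 came next. The log2 difference was -1.07 in knockout (-2.85 to 0.71) and -0.32 in wild type (-2.10 to 1.46).

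Hoxc6 read 864, 972 and 683 in P5 knockout samples, against 1059.5, 879 and 1588 in P0 knockout samples. In wild type Hoxc6 read 970.03, 746 and 1423 at P5, against 1453, 1476 and 1566 at P0. By the normalized levels the ages overlapped in both genotypes, in wild type narrowly, where the deposited signals did not overlap. Hoxc6 differed by -0.47 in knockout (-1.05 to 0.12) and by -0.58 in wild type (-1.16 to 0.01) on the log2 scale. These intervals include both no difference and a fall as large as that of Hoxb2.

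Paralog groups 9 to 11 belong to the thoracic and lumbar cord. Hoxc9 sets thoracic motor neuron identity, and Hoxc10 and Hoxd10 act in lumbar motor neurons. Of the 8 tested members, 6 fell in knockout (Hoxa9, Hoxb9, Hoxd9, Hoxa10, Hoxc10 and Hoxd10), and all of these but Hoxc10 fell in wild type. Hoxd10, Hoxd9, Hoxd8 and Hoxd3 are the 4 tested genes of the Hoxd cluster, on which Hoxd4, not analysed here, also lies. The 250 bases before the annotated start of these 4 genes are shown because 3 of them fell in both genotypes and Hoxd8 did not pass (RefSeq, GRCm38.p6, plus strand, 5′ to 3′). Successive starts lie 5872, 6852 and 7378 bases apart, and capitals mark AGGTCA, the half-site of retinoic acid receptors, and TTTATG, the core of Cdx sites, on either strand.
Hoxd10 at chr2:74691641-74691890: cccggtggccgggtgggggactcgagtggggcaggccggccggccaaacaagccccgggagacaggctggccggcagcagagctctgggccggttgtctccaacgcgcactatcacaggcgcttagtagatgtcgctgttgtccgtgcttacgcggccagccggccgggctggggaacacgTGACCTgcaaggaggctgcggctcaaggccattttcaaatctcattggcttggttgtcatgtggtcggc
Hoxd9 at chr2:74697513-74697762: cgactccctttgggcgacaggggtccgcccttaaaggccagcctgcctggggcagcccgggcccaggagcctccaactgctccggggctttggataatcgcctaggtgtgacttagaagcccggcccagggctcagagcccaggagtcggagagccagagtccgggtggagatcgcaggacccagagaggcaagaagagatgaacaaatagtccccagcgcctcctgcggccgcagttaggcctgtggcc
Hoxd8 at chr2:74704365-74704614: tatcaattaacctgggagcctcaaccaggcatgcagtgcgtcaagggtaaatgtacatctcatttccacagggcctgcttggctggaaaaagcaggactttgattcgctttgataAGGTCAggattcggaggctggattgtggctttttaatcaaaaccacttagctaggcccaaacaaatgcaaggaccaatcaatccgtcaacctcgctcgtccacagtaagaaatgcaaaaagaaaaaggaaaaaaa
Hoxd3 at chr2:74711743-74711992: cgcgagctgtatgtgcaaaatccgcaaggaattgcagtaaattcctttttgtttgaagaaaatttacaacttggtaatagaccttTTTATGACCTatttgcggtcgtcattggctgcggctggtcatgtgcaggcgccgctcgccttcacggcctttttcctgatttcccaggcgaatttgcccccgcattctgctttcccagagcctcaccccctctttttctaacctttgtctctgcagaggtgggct

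Retinoic acid and Cdx proteins are textbook regulators of Hox genes in the embryo. AGGTCA occurred 1 time each before Hoxd10, Hoxd8 and Hoxd3 and 0 times before Hoxd9, and TTTATG occurred 1 time before Hoxd3, where it shares bases with the AGGTCA match. The Meis motif TGACAG and the Pbx-Hox motif TGATNNAT, searched on both strands, did not occur in these 4 windows. Of 24 promoter entries found for 22 Hox members, 25% held AGGTCA, 20.8% TTTATG, 8.33% TGACAG and 16.7% TGATNNAT. Among all 32851 windows of this length the shares were 14%, 10.8%, 15.9% and 7.68%. The windows of Hoxd10, Hoxd9, Hoxd8 and Hoxd3 held 20, 13, 6 and 12 CpG dinucleotides, against a median of 12.5 over the Hox entries and 6 over all windows. A match describes letters only and says nothing of binding.

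Hoxd10 had the largest fall of the tested members in both genotypes. Its signal was 1389, 1348 and 1196 in P5 knockout samples, against 3895, 3789 and 5664 in P0 knockout samples. In wild type it was 1133, 1218 and 789 at P5, against 3913, 3015 and 2868 at P0. The ages were far apart, at a 3.35-fold fall in knockout (log2 -1.74, SE 0.20, adjusted p = 0.000108) and a 3.13-fold fall in wild type (log2 -1.65, SE 0.20, adjusted p = 0.000126). Hoxd9 read 970.1, 839 and 666 in P5 knockout samples, against 1869, 1727 and 2385 in P0 knockout samples. In wild type Hoxd9 read 429, 572 and 697 at P5, against 2022, 1922 and 1046 at P0. All P5 samples lay below all P0 samples, and Hoxd9 fell 2.42-fold in knockout (adjusted p = 0.00949) and 2.85-fold in wild type (adjusted p = 0.00259).

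Hoxd8, whose annotated start lies between those of Hoxd9 and Hoxd3, read 1023, 1038 and 1114 in P5 knockout samples, against 1158, 1089 and 1638 in P0 knockout samples. In wild type Hoxd8 read 1019.6, 779.9 and 1050.3 at P5, against 1062, 1373 and 1176 at P0. The ages overlapped in both genotypes by the normalized levels, in wild type narrowly, where the deposited signals did not overlap. The log2 difference was -0.29 in knockout (95% interval -0.76 to 0.18) and -0.36 in wild type (-0.82 to 0.11), intervals that end short of the fitted falls of Hoxd9, Hoxd10 and Hoxd3. A second Hoxd8 probe set gave -0.41 in knockout and -0.51 in wild type.

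Hoxa10 read 1088, 545 and 777 in P5 knockout samples, against 2014, 1466 and 2189 in P0 knockout samples. In wild type Hoxa10 read 679.6, 678 and 787 at P5, against 1846, 1208 and 1459 at P0. The ages did not overlap, and the log2 difference was -1.27 in knockout and -1.05 in wild type (SE 0.24, adjusted p = 0.00446 and 0.00936). Hoxc10 read 789, 714 and 730.3 in P5 knockout samples, against 1082, 1364 and 2192 in P0 knockout samples. In wild type Hoxc10 read 795, 716 and 591 at P5, against 1086, 1375 and 919 at P0. Its ages were apart in both genotypes, but only the knockout difference passed (-0.98, adjusted p = 0.031), and the wild-type difference was -0.68 (SE 0.27, adjusted p = 0.0851). The knockout call held in 7 of the 12 fits that left out 1 sample, with log2 differences between -1.25 and -0.66 and an adjusted p of up to 0.11. The difference between the age effects of the genotypes was -0.31 (SE 0.38, adjusted p = 0.815).

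Hoxa9 read 3252, 2928 and 2711 in P5 knockout samples, against 5554, 4526 and 7261 in P0 knockout samples. In wild type Hoxa9 read 2388, 2707 and 2706 at P5, against 6081, 5173 and 3654 at P0. The groups did not overlap, at a log2 difference of -0.94 in knockout and -0.90 in wild type (SE 0.19, adjusted p = 0.00699 and 0.00648). Hoxb9 read 1078, 1093 and 1040.3 in P5 knockout samples, against 1539.5, 2623 and 3420.4 in P0 knockout samples. In wild type Hoxb9 read 1069.6, 1013 and 1147 at P5, against 2429.9, 2749.7 and 2191 at P0. All 6 P5 values of Hoxb9 lay close together, and its log2 difference was -1.16 in knockout and -1.18 in wild type (SE 0.25, adjusted p = 0.00912 and 0.00585). 

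Hoxc9 read 451, 315 and 413 in P5 knockout samples, against 524, 937 and 1076 in P0 knockout samples. In wild type Hoxc9 read 608, 408 and 437 at P5, against 699, 1254 and 566 at P0. P0 samples of a group differed widely, and Hoxc9 did not pass at -1.04 in knockout (SE 0.36, adjusted p = 0.082) and -0.72 in wild type (SE 0.36, adjusted p = 0.162). Hoxa11 read 486, 480.4 and 589 in P5 knockout samples, against 537, 690.5 and 506 in P0 knockout samples. In wild type Hoxa11 read 407, 615 and 359.7 at P5, against 683, 547 and 601 at P0. Its ages overlapped in both genotypes by the normalized levels, at -0.16 in knockout (-0.67 to 0.35) and -0.42 in wild type (-0.94 to 0.09).

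By cluster, 6 of 8 tested Hoxa genes, 5 of 6 Hoxb genes and 3 of 4 Hoxd genes fell in both genotypes, and 3 of 6 Hoxc genes fell in knockout, against 2 in wild type. The median log2 difference was -1.06 in knockout and -0.93 in wild type for Hoxa, -1.001 and -0.91 for Hoxb, -1.01 and -0.70 for Hoxc, and -1.30 and -1.41 for Hoxd. The P5 samples lay entirely below the P0 samples for 20 of the 24 genes in knockout and 16 in wild type, where 18.8% and 17% of all tested genes did. They lay entirely above for 0 Hox genes, where 14.6% of all tested genes did in knockout and 18.4% in wild type. The 9 genes below the filter added no call in a fit without the filter, adjusted over all 18193 measured genes. Of the 33 measured Hox genes, 17 fell in knockout and 13 in wild type in it, where 500 and 890 of all 18193 measured genes fell. In that fit the 9 had a median log2 difference of -0.15 in knockout and -0.04 in wild type, with 2 and 4 of them above 0. Their smallest limma adjusted p was 0.182 in knockout and 0.234 in wild type. Tested members had 14 further probe sets, and the 8 of them above the filter all had values below 0 in both genotypes. Among these 8, the value nearest 0 was -0.18 in knockout (Hoxb4, SE 0.32) and -0.40 in wild type (Hoxa5, SE 0.38). Those below the filter went both ways, with a Hoxa10 probe set above 0 in both genotypes, a Hoxa3 probe set in wild type and a Hoxc6 probe set in knockout.

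The 2 genotypes were then compared at each age, the comparison that the knockout design implies. Of the 24 tested Hox genes, 0 differed at P5, where 0.00794% of all tested genes did, and 0 differed at P0, where 0.0238% did (limma, adjusted p under 0.05). An unadjusted p under 0.05 was reached by 1 Hox gene at P5, where 1.84% of all tested genes reached it, and by 2 at P0, where 16.1% did. The median log2 difference, knockout minus wild type, was -0.06 at P5 and 0.10 at P0, against 0.00 and 0.07 over all tested genes. The half-width of the 95% interval had a median of 0.51 over the Hox genes. The targeted Grin3b, read in a fit without the filter, did not pass at either age.

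**Figure D3:**
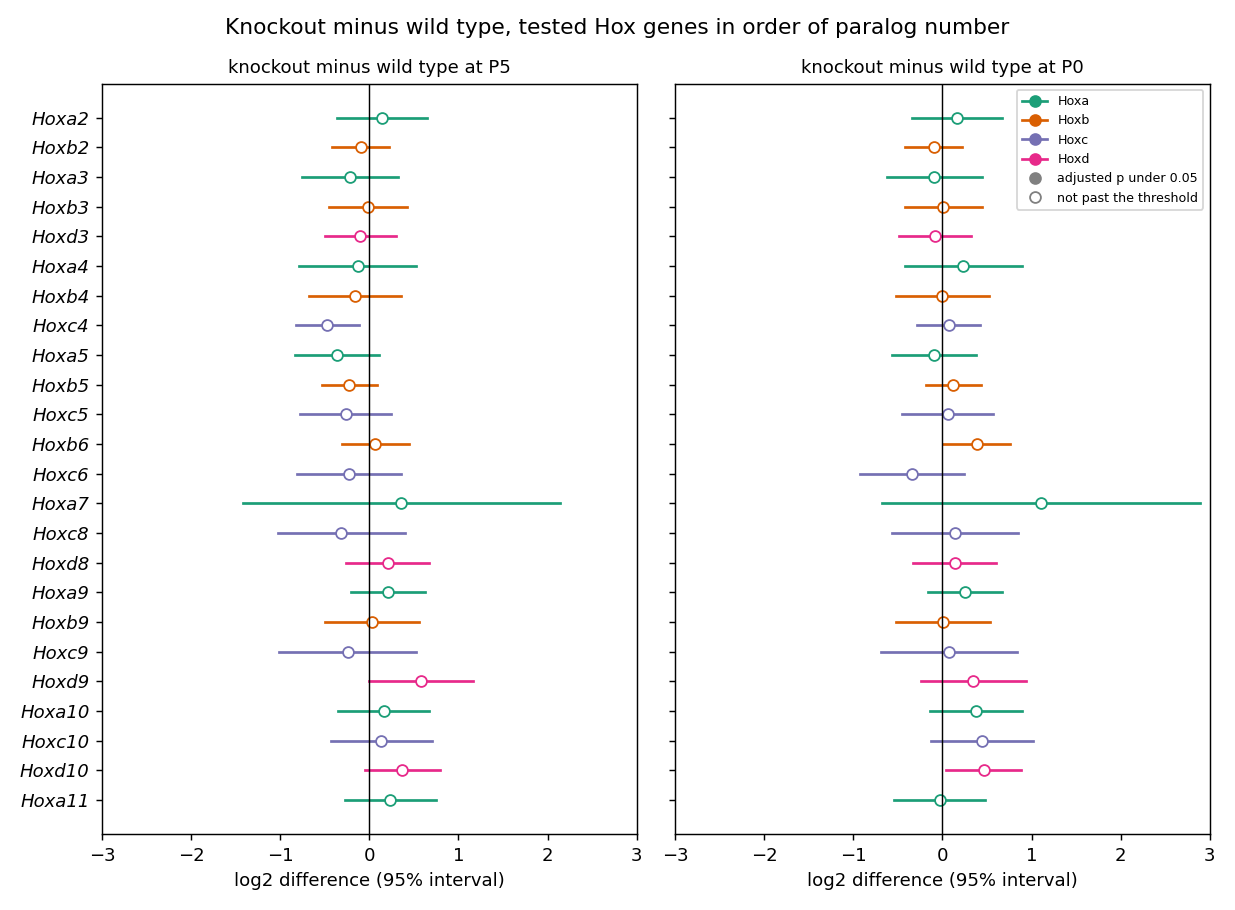
Log2 differences knockout minus wild type with 95% intervals for the 24 tested Hox genes, P5 on the left and P0 on the right, in order of paralog number from top to bottom. All points are open, since 0 genes passed at either age, and the interval of Hoxa7 is the widest.

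At P5 the smallest unadjusted p belonged to Hoxc4, Hoxd9, Hoxd10 and Hoxa5. The Hoxc4 signals given above lay below all P5 wild-type samples in the 3 P5 knockout samples, at a log2 difference of -0.47 (-0.83 to -0.12, adjusted p = 1). By the normalized levels Hoxd10 was above all P5 wild-type samples in the 3 P5 knockout samples, while in the deposited signals P5 knockout sample 3 lay just below P5 wild-type sample 2. Its difference was 0.37 (-0.05 to 0.79, adjusted p = 1). Hoxd9 was at 0.58 (-0.01 to 1.17) and Hoxa5 at -0.36 (-0.84 to 0.11), and their groups overlapped. Knockout samples lay entirely below wild-type samples for 3 Hox genes at P5 and entirely above for 2, where 5.26% and 7.66% of all tested genes did.

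At P0 they belonged to Hoxd10, Hoxb6, Hoxc10 and Hoxa10, all with knockout above wild type on average. By the normalized levels all P0 knockout samples lay above all P0 wild-type samples for Hoxd10, while in the deposited signals P0 wild-type sample 1 lay above P0 knockout samples 1 and 2. The difference was 0.46 (0.04 to 0.88, adjusted p = 0.295). Hoxb6 was at 0.38 (0.01 to 0.76, adjusted p = 0.307), Hoxc10 at 0.44 (adjusted p = 0.392) and Hoxa10 at 0.38 (adjusted p = 0.41), each with overlapping groups. Knockout samples lay entirely above wild-type samples for 1 Hox gene and entirely below for 0, where 6.66% and 3.51% of all tested genes did. The P0 outcome depends on P0 wild-type samples 1 and 2. Without sample 2, Hoxb6 passed at 0.59 (adjusted p = 0.0132), and without both, Hoxb6 passed at 0.76 (adjusted p = 0.0333) and Hoxa7 at 3.68 (adjusted p = 0.0192), while the median over the Hox genes was 0.42. In that fit P0 wild type is sample 3 alone, where Hoxa7 had its lowest signal, 66.2. By paralog group the medians at P0 were -0.08 for groups 1 to 3, 0.12 for groups 4 to 8 and 0.30 for groups 9 to 13, and at P5 they were -0.10, -0.23 and 0.18.

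Averaged over both ages, 0 Hox genes differed, where 0.0238% of all tested genes did, and 2 of the 24 reached an unadjusted p under 0.05, where 8.65% of all tested genes did. These were Hoxd10 at 0.42 (0.12 to 0.71, adjusted p = 0.574) and Hoxd9 at 0.46 (0.05 to 0.88, adjusted p = 0.574). They were followed by Hoxb6 at 0.23 and Hoxc4 at -0.20. With array weights, 5 Hox genes passed in this average (Hoxa7, Hoxa9, Hoxb6, Hoxd9 and Hoxd10), beside 2042 of all tested genes. The difference between the age effects of the genotypes passed for 0 Hox genes and for 0% of all tested genes, with 1 Hox gene at an unadjusted p under 0.05, which 4.98% of all tested genes reached. This was Hoxc4, with an age effect in knockout minus that in wild type of -0.54 on the log2 scale (-1.04 to -0.04, adjusted p = 0.742). Next were Hoxb5 at -0.35, Hoxb6 at -0.32 and Hoxc8 at -0.46, with adjusted p of 0.742, 0.742 and 0.782. With array weights, Hoxc4 at -0.78 (adjusted p = 0.0189) and Hoxb5 at -0.55 (adjusted p = 0.0369) passed, beside 1527 of all tested genes.

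The Hox genes varied together between samples of 1 group at P0. Averaged over the 24 tested genes as log2 differences from each gene's mean over 12 samples, the level was 0.41, 0.39 and 0.83 in P0 knockout samples and 0.43, 0.75 and 0.00 in P0 wild-type samples. At P5 it was -0.40, -0.52 and -0.52 in knockout samples and -0.46, -0.43 and -0.50 in wild-type samples. The 6 P5 samples were close together, and P0 wild-type sample 3 was nearest to them. P0 wild-type sample 3 was the lowest of its group for 18 of the 24 Hox genes, against 24.7% of all tested genes, and P0 wild-type sample 2 was the highest for 18, against 40.8%. P0 knockout sample 3 was the highest of its group for 17 Hox genes, against 43.2% of all tested genes. The median SD within a group was 0.215 in P5 knockout, 0.181 in P5 wild type, 0.323 in P0 knockout and 0.362 in P0 wild type, against 0.133, 0.119, 0.210 and 0.269 over all tested genes.

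Of the Hox cofactors of the TALE homeodomain class, 8 were tested. Of these, 4 fell with age in knockout and 3 in wild type, where 4.95% and 8.52% of all tested genes fell. Meis2 fell in both genotypes, with log2 differences of -0.98 in knockout and -0.96 in wild type (SE 0.14, adjusted p = 0.000711 and 0.000758), and so did Pbx3, with -0.92 and -0.94 (SE 0.14, adjusted p = 0.000795 and 0.000588). Pknox2 fell in both genotypes (-0.51 and -0.59) and Meis3 in knockout (-0.56, adjusted p = 0.0386), with -0.39 in wild type. The cofactor list had a median of -0.42 in knockout and -0.49 in wild type. None of the 8 differed by genotype.

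Among 7 tested regulators that act upstream of Hox genes, Gbx2, a homeodomain factor of the anterior hindbrain, fell in both genotypes (-1.67 in knockout and -1.44 in wild type). In wild type the retinoic acid receptor Rarb fell (-0.62, adjusted p = 0.0309) and Cyp26b1, an enzyme that degrades retinoic acid, rose (0.76, adjusted p = 0.00801), while in knockout they were at -0.26 and 0.46 and did not pass. Cdx1, Cdx2 and Cdx4 lay below the filter. Over all tested genes, 4.95% fell and 5.5% rose in knockout, and 8.52% fell and 10.8% rose in wild type.

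Polycomb proteins keep Hox genes silent and trithorax proteins keep them active. Of 20 tested genes of these groups, 2 rose and 1 fell in knockout, where 5.5% and 4.95% of all tested genes did. In wild type 3 rose and 2 fell, where 10.8% and 8.52% of all tested genes did. Ezh2, the methyltransferase of Polycomb complex PRC2, rose by 0.92 in knockout and 0.85 in wild type (SE 0.13, adjusted p = 0.000663 and 0.00101), and Phc2, a subunit of PRC1, rose by 0.72 and 0.79. Eed, which binds Ezh2, rose in wild type (0.57), where Ezh1 (-0.53) and the ubiquitin ligase Rnf2 (-0.63) fell. Kmt2a, a trithorax methyltransferase, fell in knockout (-0.55, adjusted p = 0.0466). The median over the list was 0.10 in knockout and 0.02 in wild type.

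Genes that flank the Hox clusters were read beside them. Of 13 tested, 0 rose and 1 fell in knockout (Jazf1, -0.73), where 5.5% and 4.95% of all tested genes did. In wild type 1 rose (Hibadh, 0.60) and 2 fell (Jazf1, -0.67, and Smug1, -0.72), where 10.8% and 8.52% did. The median was -0.09 in knockout and -0.08 in wild type. Of the 2 tested noncoding RNAs of the clusters, Hoxd3os1, an antisense transcript at Hoxd3, fell, with log2 differences of -1.13 in knockout and -0.71 in wild type (SE 0.15, adjusted p = 0.000376 and 0.00692). The other, Hoxb5os, was at -0.91 and -0.46 and did not pass (adjusted p = 0.218 and 0.475).

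Of 11 tested markers of hindbrain and spinal neurons, 5 fell with age, 1 rose and 5 did not pass in both genotypes. Among all tested genes 4.95% fell and 5.5% rose in knockout, and 8.52% fell and 10.8% rose in wild type. The median of the 11 was -0.46 in knockout and -0.64 in wild type. Those that fell were Lbx1 of dorsal interneurons (-1.05 in knockout and -0.85 in wild type), Pax8 (-1.24 and -1.57), Lmx1b (-0.94 and -0.91), Isl1, a factor of motor and sensory neurons (-2.23 and -1.25) and the vesicular acetylcholine transporter Slc18a3 (-0.97 and -0.64). Prdm8 rose (1.28 and 1.15). The mean level of the 11 genes ran from -0.46 to -0.20 in P5 knockout, from -0.24 to -0.18 in P5 wild type, from 0.16 to 0.37 in P0 knockout and from 0.16 to 0.30 in P0 wild type. Of 8 tested motor column markers, 1 fell in knockout (Lhx3, -1.03) and 0 in wild type (Lhx3, -0.74).

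Of 8 tested markers of the midbrain and anterior hindbrain, 3 rose and 1 fell in knockout, and 4 rose and 1 fell in wild type. The shares over all tested genes were 5.5% rising and 4.95% falling in knockout, and 10.8% and 8.52% in wild type. Atoh1, a factor of cerebellar granule cell precursors, rose by 1.92 in knockout and 2.16 in wild type, Barhl1 by 1.09 and 1.55, and En2 by 1.08 and 1.04. Otx2 rose in wild type (1.11), against 0.65 in knockout, and the gene that fell was Gbx2. Among 5 tested forebrain markers 1 rose in both genotypes (Eomes, 0.88 in knockout and 1.38 in wild type). The mean level of the midbrain and anterior hindbrain list ran from 0.15 to 0.24 in P5 knockout, from 0.14 to 0.24 in P5 wild type, from -0.22 to 0.01 in P0 knockout and from -0.42 to -0.07 in P0 wild type. The part of tissue makeup in the fall of the Hox genes was not tested.

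Other cell types that dissected cord and hindbrain can carry were read as well. Beside their counts, 4.95% of all tested genes fell and 5.5% rose in knockout, and 8.52% fell and 10.8% rose in wild type. Of 4 tested dorsal root ganglion markers, 2 fell in both genotypes, Prph, an intermediate filament of peripheral and motor neurons (-1.41 in knockout and -1.27 in wild type), and Pou4f1 (-1.09 and -1.42), while Scn10a and Trpv1 lay below the filter. The mean of the 4 tested genes ran from -0.64 to -0.34 in P5 knockout and from -0.75 to -0.33 in P5 wild type, and it was -0.04, 1.03 and 0.33 in P0 knockout samples and 0.36, -0.20 and 1.54 in P0 wild-type samples, highest in the P0 wild-type sample with the lowest Hox level. Of 13 tested meninges and fibroblast markers, 1 rose in knockout (Igf2, 0.55) and 6 in wild type, among them Igf2 (1.49) and Ptgds (1.20), with mean levels of 0.21 to 0.31 in P5 knockout, -0.03 to 0.27 in P5 wild type, 0.04 to 0.24 in P0 knockout and -0.68 to -0.39 in P0 wild type. Of 4 tested cartilage markers 1 rose in both genotypes (Col9a1, 1.15 in knockout and 1.17 in wild type), and of 5 tested muscle and 2 tested skin markers 0 passed, with Myog, Krt5 and Krt14 below the filter. The part of these cells in the Hox differences was not tested.

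**Figure D4:**
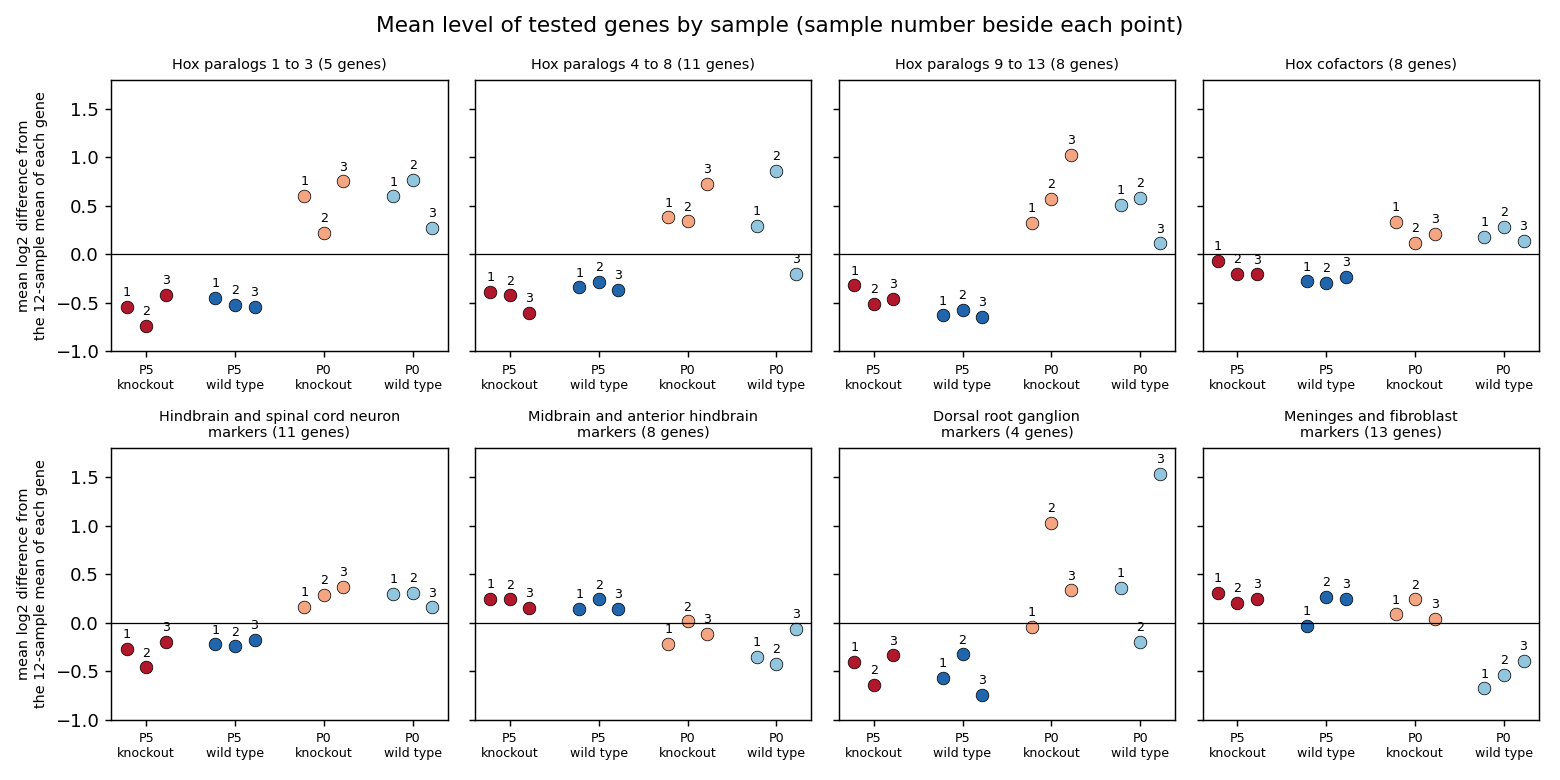
Mean log2 difference of the tested genes of a list from each gene's mean over 12 samples, with 1 point per sample, its sample number beside it, and groups ordered P5 knockout, P5 wild type, P0 knockout and P0 wild type. The Hox panels sit below 0 at P5, with P0 wild-type sample 3 lowest of its group, while the midbrain and anterior hindbrain list sits above 0 at P5, and the dorsal root ganglion list reaches 1.54 in P0 wild-type sample 3.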

How the data were processed

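Total RNA of 12 samples was hybridised to 1-colour Affymetrix mouse arrays, and the signals, an intensity per probe set on a linear scale, are used as deposited by the authors. The sources used here do not name the software. Trimmed means of the arrays agreed within 2487 to 2492, so the deposited values are scaled. The 45101 probe sets include 64 controls, which were left out. Symbols came from the platform annotation, and probe sets with several symbols were left out, 3 of them with a Hox symbol.

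The levels were log2(signal + 16), quantile-normalized, with 1 probe set per gene (the highest mean) and a filter at the 40th percentile of mean level. A log2 difference understates the change of dim genes, because of the added 16. All 12 samples entered 1 limma fit (limma 3.58.1, R 4.3.3, lmFit and eBayes with an intensity trend), with 4 group means, 6 comparisons and Benjamini-Hochberg adjustment over 12600 genes at 0.05. The steps were tested on simulated data. The 3 arrays a group limit the precision. Replicate numbers were checked for pairing: 5 of 18 same-number correlations of deviations from the group means exceeded 0.1 (range -0.128 to 0.414). The highest, 0.414 and 0.378, were between P0 knockout and P0 wild-type samples of numbers 1 and 2, against 0.0276 for number 3. The numbers were not taken to pair samples, and whether P0 samples 1 and 2 of the genotypes share a batch is unknown.

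The 38 genes, the other 14 gene lists and the alternatives were chosen with earlier results of these data known. Values in every sample are given for the members changed with age and for the 4 members with the smallest p where fewer than 4 changed; Hoxa7, Hoxa11, Hoxc6, Hoxc9 and Hoxd8 were added after their values were seen. Of other lists, changed genes are named. Signals in the text are the deposited ones, while differences and overlaps use normalized levels. Alternatives covered scaling, pseudocount, filter, samples in the fit, array weights, intensity trend, replicate block, averaging of probe sets and omission of samples.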

Additional observations from a re-analysis of the deposited data

How the results depend on the processing

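Of the Hox differences with age called in all samples, 0 turned their sign under any alternative run for them (23 settings in all, fewer for genes that a setting did not test). Hoxa7 in wild type, at -0.32 and not called there, was called higher under 2 of them. Hox counts not given here stayed within 1.5 times. For P5 minus P0, leaving out 1 sample gave 13 to 19 called Hox genes in knockout (median -1.17 to -0.91) and 13 to 17 in wild type (-1.07 to -0.65). In these fits 270 to 1019 of all 12600 tested genes fell in knockout and 477 to 2070 in wild type. Among the Hox genes, 12 knockout and 13 wild-type members kept their call in all 12 such fits. A filter at the 60th percentile, which leaves 12 Hox genes, gave 10 in each genotype. Of all 9769 genes it leaves, 576 fell in knockout and 1067 in wild type. Averaging all probe sets of a gene, which leaves 21 Hox genes, gave 12 in knockout and 11 in wild type. Of all 11834 genes it leaves, 473 fell in knockout and 830 in wild type. Array weights gave a wild-type median of -0.61 with 15 genes lower and Hoxa7 higher at 1.60. Of all 12600 tested genes 6005 passed there, 2692 of them lower. Without P0 wild-type samples 1 and 2, fewer Hox genes passed in wild type and the median was -0.56. There 21 of the 24 were below 0 in wild type and all 24 in knockout. For knockout minus wild type, array weights gave 3 called Hox genes at P0 (Hoxb6 at 0.69, Hoxc10 at 0.74 and Hoxa7 at 3.08), beside 3083 of all 12600 tested genes. They gave 5 in the average over both ages (Hoxb6, Hoxa9, Hoxd10, Hoxd9 and Hoxa7), beside 2042 of all tested genes. In the genotype by age difference they gave 2 (Hoxb5 at -0.55 and Hoxc4 at -0.78), beside 1527. P0 wild-type sample 3 carried a weight of 2.44 there. At P0, leaving out 1 sample gave 0 to 1 (Hoxb6 without P0 wild-type sample 2), with medians of -0.07 to 0.27, and without P0 wild-type samples 1 and 2 the count was 2, the P0 median 0.42 and the median genotype by age difference -0.48. At P5, in the average and in the genotype by age difference, leaving out 1 sample gave 0. A fit with the replicate number as a block changed no Hox count: 17 in knockout, 16 in wild type and 0 in the 4 other comparisons. Counts over all genes moved more: from 3 to between 0 and 3083 at P0, from 2438 to between 1204 and 6005 with age in wild type, from 1317 to between 651 and 2159 in knockout, from 3 to between 1 and 2042 in the average, from 1 to between 0 and 6 at P5 and from 0 to as many as 1527 in the genotype by age difference, each highest or jointly highest with array weights except in knockout, where omission of P0 wild-type samples 1 and 2 gave the most. The causes of these shifts were not tested.

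With 3 arrays a group, the median 95% interval of a Hox difference spans 0.51 to either side on the log2 scale. Signals of different probe sets cannot be compared.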
